A study of Mus musculus with 19 samples.

Results

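The knock-in effect in the striatum was measured by RNA sequencing of 6 libraries, 3 from SCA17 knock-in (KI) mice and 3 from wild-type (WT) mice, out of 19 libraries in the whole series. The members were the striatum libraries as labelled, and all genes in the count table were examined in them. The other libraries came from the cerebellum (7) and the prefrontal cortex (6) of mice of the same genotypes. All mice were C57BL/6 and 3 months old, and no treatment is listed. KI mice carry a germline insertion of an expanded polyglutamine tract in *Tbp*, obtained from a floxed *TBP* allele by crossing with EIIa-Cre mice, so the change is present in every cell of the striatum and is not confined to neurons. KI progeny of that cross were bred with WT mice, a cross that passes on 1 expanded allele, but the genotype labels do not state zygosity, and the WT mice are described both as littermates and as age-matched. Library names carry a replicate number of 1 to 3 in each genotype. Nothing in the labels ties a number to one animal, so p-values measure a spread between libraries. That spread was estimated over all 19 libraries and is not that of the 6 striatum libraries alone.

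TBP, the TATA box-binding protein, is the DNA-binding subunit of TFIID and takes part in transcription by all nuclear RNA polymerases, and expansion of its polyglutamine tract causes spinocerebellar ataxia type 17. Most striatal neurons are medium spiny neurons, inhibitory projection cells that receive cortical glutamate and midbrain dopamine and carry either D1 or D2 dopamine receptors. Type I interferon acts through a cell-surface receptor and JAK kinases on a transcription factor complex that binds the interferon-stimulated response element in front of a common set of antiviral genes.

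Each striatum library held between 13453498 and 15493036 counted reads. Levels are given as CPM (counts scaled to the TMM-adjusted library size). Differences are log2 fold changes of KI over WT (n = 3 libraries per genotype) with a standard error (SE) derived from edgeR's quasi-likelihood test on all 19 libraries. The SE is the absolute log2 fold change divided by the square root of the F statistic. It therefore rests on the spread over all 19 libraries. The labelled tissue was checked by 39 medium spiny neuron genes, whose summed level was 17020 to 32080 CPM in the striatum, 2714 to 5261 CPM in the prefrontal cortex and 1130 to 1366 CPM in the cerebellum. The striatum libraries also differed in markers of other cell types. The summed level of 16 choroid plexus genes, mostly *Ttr*, was 5817, 4583 and 7779 CPM in KI and 7308, 9696 and 1652 CPM in WT replicates 1 to 3, so WT replicate 3 stood apart. The summed level of 13 oligodendrocyte genes was 22490, 9916 and 20160 CPM in KI and 19150, 17460 and 13340 CPM in WT, with KI replicate 2 lowest. *Xist* and Y-linked reads marked KI replicates 1 and 2 and WT replicate 1 as male and the remaining libraries as female. Reads of near-identical copies (*Oas1a*, *Oas1b* and *Oas1g*, *Ifit3* and *Ifit3b*, *Apol9a* and *Apol9b*, the H2 genes) may have been divided between them by the counting, so their single values are uncertain.

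In the KI striatum, 66 of 16841 tested genes (0.392%) were higher and 32 (0.19%) were lower than in WT at an adjusted p under 0.05 by edgeR, Benjamini-Hochberg adjusted. The higher genes were mostly interferon-stimulated genes, 47 of the 66, and the lower genes included postsynaptic, channel and kinase genes of higher level. The median log2 fold change was 1.63 for the higher genes, whose median level was 4.91 CPM in WT and 15.8 CPM in KI, and 56 of them rose by at least 1 log2 unit. It was -0.70 for the lower genes, whose median level was 157 CPM in WT and 103 CPM in KI, and 6 of them fell by at least 1 log2 unit. All 66 higher genes had the KI libraries above the WT libraries, as had 5.65% of all tested genes, and all 32 lower genes had the KI libraries below the WT libraries, as had 8.46% of all tested genes. The median over all tested genes was -0.01. KI replicate 3, the only female KI library, was the highest KI library for 53 of the 66 higher genes, and with a sex covariate 69 genes were higher and 28 lower. With the choroid plexus level as a covariate 64 were higher and 33 lower, of which 63 and 30 were among the 66 and the 32. Leaving out 1 library at a time kept 27 of the 66 higher and 5 of the 32 lower genes in all 6 fits. The counts fell to 29 higher and 7 lower without KI replicate 3, to 30 and 6 without WT replicate 2, to 39 and 17 without WT replicate 3, to 41 and 15 without WT replicate 1, and to 52 and 7 without KI replicate 1.

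**Figure D1:**
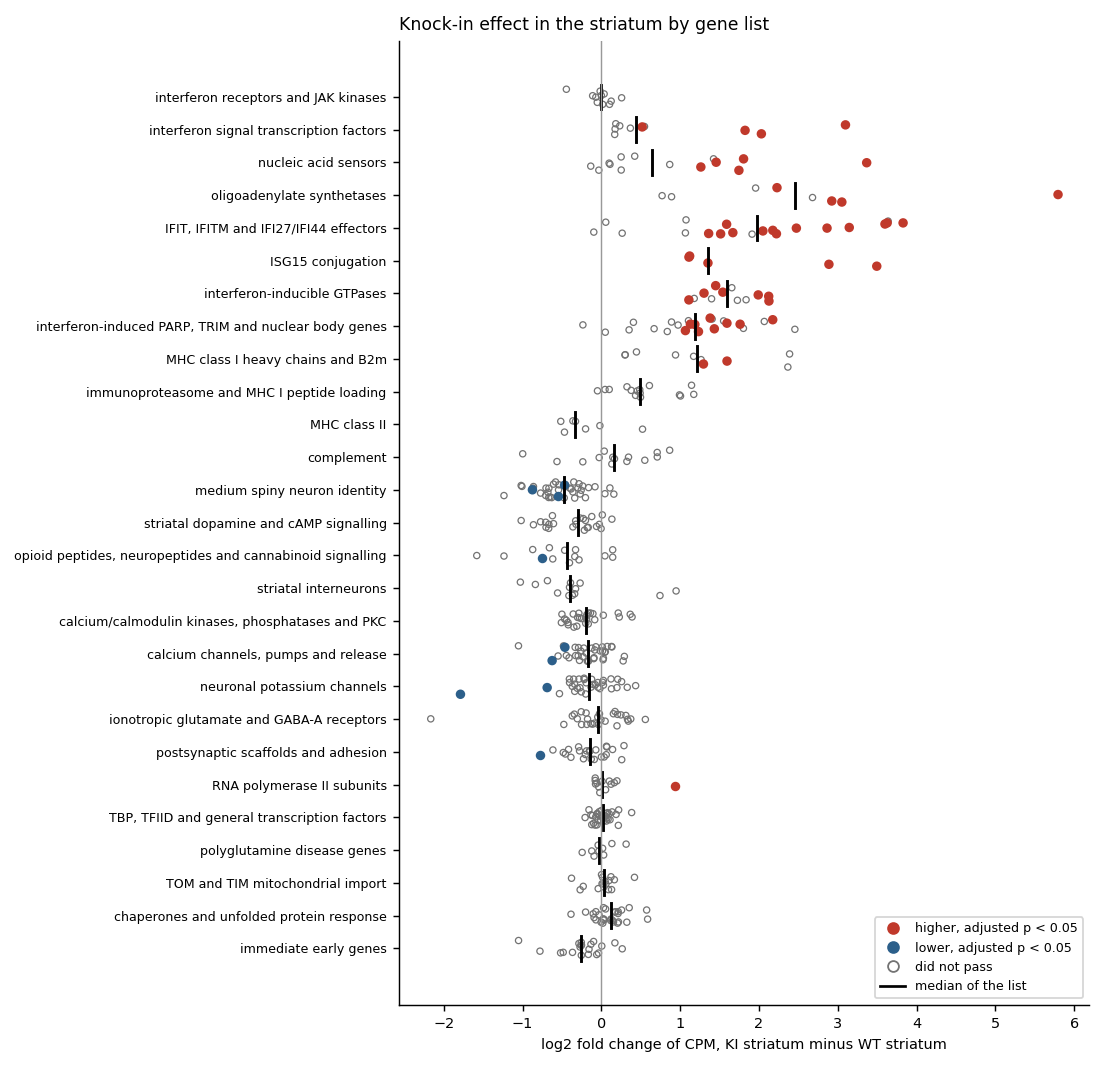
Log2 fold change of KI over WT striatum (horizontal axis) for each tested member of 27 gene lists (rows). Filled points passed an adjusted p of 0.05, open points did not, and the black bar is the median of the list, which is 1.98 for the IFIT list and -0.47 for the medium spiny neuron list.

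Transcription factors of the interferon signal rose, 4 of 10 tested. *Irf9* (chr14:55603571-55610030, GRCm38), a DNA-binding subunit of the complex named above, had 48.2, 46.4 and 60.7 CPM in KI and 14.9, 12.0 and 11.1 CPM in WT replicates 1 to 3. Its log2 fold change was 2.03 (SE 0.18, adjusted p = 1.6e-05 by edgeR), and every KI library lay above the WT libraries. *Irf7*, which amplifies interferon production, had 27.4, 29.9 and 40.1 CPM in KI against 5.74, 2.30 and 3.25 CPM in WT. Its log2 fold change was 3.10 (SE 0.37). *Stat2* rose less, from 29.7, 24.7 and 25.6 CPM in WT to 38.5, 37.2 and 38.9 CPM in KI (0.52, SE 0.10, adjusted p = 0.021 by edgeR, Benjamini-Hochberg adjusted). All 10 factors had a positive log2 fold change, and *Irf1* was at 0.55 (adjusted p = 0.42). Among 11 interferon receptor, JAK and SOCS genes, edgeR called 0 in either direction, 0 had an unadjusted p under 0.05 and DESeq2 called 0. Their median log2 fold change was -0.00079.

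Antiviral effectors, which block viral entry, RNA translation or budding, rose as well. Of 20 tested members of the IFIT, IFITM and IFI27/IFI44 list, 13 rose and 0 fell. *Ifit1*, which binds RNA without a host cap, had 34.5, 33.7 and 68.1 CPM in KI and 4.67, 2.82 and 3.71 CPM in WT (log2 fold change 3.60, SE 0.40). *Ifit3* had 46.4, 57.8 and 72.4 CPM in KI and 9.62, 8.398 and 6.18 CPM in WT (2.86, SE 0.31). *Ifi27l2a* had 19.0, 16.2 and 42.4 CPM in KI and 2.60, 1.86 and 0.927 CPM in WT (3.83, SE 0.49). For each of them every KI library had at least 4.83 times the level of the highest WT library. *Rtp4*, an interferon-induced Golgi chaperone, went from 4.61, 2.68 and 4.33 CPM in WT to 25.5, 29.1 and 48.5 CPM in KI (3.15, SE 0.26). *Ifitm3*, a restriction factor of viral entry, had a log2 fold change of 2.05 (SE 0.31), and *Rsad2*, the antiviral enzyme viperin, one of 1.51 (SE 0.33, adjusted p = 0.042 by edgeR, Benjamini-Hochberg adjusted). *Rsad2* passed in none of the 6 fits that left out 1 library.

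The interferon-stimulated response element is shown for 5 higher genes because these letters recur in the promoters of the higher genes. Its core, GAAA, any 2 bases and GAAA again, or on the opposite strand TTTC, any 2 bases and TTTC, was searched in RefSeq promoter windows of GRCm38.p6, from 250 bases before to 50 bases after a start site. It was present in 30 of the 55 higher genes that have a window (54.5%), in 1 of 25 lower genes (4.0%, *Kcnab1*) and in 3.64% of 12618 tested genes. TTCNNNGAA, the gamma-activated site, was present in 9 of the 55 higher genes, 5 of the 25 lower genes and 8.15% of tested genes. TATAAA, the TATA box, was present in 13 higher genes, 3 lower genes and 9.2% of tested genes. GGGCGG, the core of the SP1 site, was present in 22 higher genes, 21 lower genes and 65.2% of tested genes. Each motif was searched on both strands. In 2 higher genes a match of the response element core overlapped one of another motif. Matches of the response element core are in capitals in the stretches below, which read 5′ to 3′ on the strand of the gene and end before the start site. The stretches lie at chr19:34640755-34640843 (plus strand) for *Ifit1*, chr19:34583343-34583446 (plus) for *Ifit3*, chr5:120907526-120907575 (minus) for *Oas1a*, chr11:48871421-48871480 (minus) for *Irgm1* and chr2:122147518-122147587 (plus) for *B2m*.
Ifit1: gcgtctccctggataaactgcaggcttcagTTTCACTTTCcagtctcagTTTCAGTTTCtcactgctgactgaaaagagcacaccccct
Ifit3: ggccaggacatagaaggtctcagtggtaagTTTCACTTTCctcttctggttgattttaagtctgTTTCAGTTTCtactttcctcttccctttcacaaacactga
Oas1a: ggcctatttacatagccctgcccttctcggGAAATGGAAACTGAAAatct
Irgm1: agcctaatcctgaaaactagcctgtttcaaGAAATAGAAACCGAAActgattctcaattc
B2m: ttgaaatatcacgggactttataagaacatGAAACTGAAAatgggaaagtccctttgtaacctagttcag

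*Ifit1* and *Ifit3* each had 2 separate matches, in *Oas1a* and *Irgm1* 2 matches overlapped, and *B2m* had 1. The stretch of *Ifit3b* was identical to that of *Ifit3*. Among the 20 higher genes with the smallest adjusted p, *Irf9*, *Oasl2*, *Irf7*, *Polr2a* and *Samd9l* had a window without these letters, and *Rtp4*, *Usp18* and *Ifi27l2a* are named only. A match is a description of letters and not of binding.

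Enzymes that respond to foreign RNA rose too. Of 8 tested 2′-5′-oligoadenylate synthetase genes, whose products activate RNase L, 4 passed and all 8 had KI above WT. *Oasl2* had 34.5, 38.9 and 54.7 CPM in KI and 6.88, 4.38 and 5.56 CPM in WT (2.92, SE 0.31). *Oas1a* had 6.49, 5.06 and 7.80 CPM in KI and 0.935, 0.446 and 0.927 CPM in WT (3.05, SE 0.37). *Oas1g* had 21, 26 and 31 reads in KI and 1, 0 and 0 reads in WT, too few in WT for a fold. All 5 genes of the ISG15 system rose, which attaches the ubiquitin-like protein ISG15 to other proteins. *Isg15* itself had 5.88, 7.99 and 13.5 CPM in KI and 1.54, 0.818 and 1.31 CPM in WT (2.89, SE 0.43), and *Usp18*, the protease that removes it, had 23.8, 28.1 and 52.4 CPM in KI and 3.74, 2.08 and 3.40 CPM in WT (3.49, SE 0.39). The activating enzyme *Uba7* (1.11), the conjugating enzyme *Ube2l6* (1.12) and the ligase *Herc6* (1.35) rose less. *Uba7*, *Ube2l6* and *Herc6* each passed in only 1 of the 6 fits that left out 1 library, and *Isg15* and *Usp18* in all 6.

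Of 14 tested nucleic acid sensors, 5 rose. They were *Ddx58*, which encodes RIG-I (1.80, SE 0.22), its relatives *Ifih1* (1.46) and *Dhx58* (1.75), the RNA-dependent kinase *Eif2ak2* (1.26) and *Ifi204* (3.37). *Tlr3* (0.25), *Tlr7* (-0.03) and *Tmem173*, which encodes STING (-0.14), did not pass and are named after their values were seen. All 12 tested interferon-inducible GTPases had KI above WT and 7 passed. *Gbp3* had 30.8, 31.3 and 52.0 CPM in KI and 11.1, 5.87 and 9.12 CPM in WT (2.13, SE 0.27), and *Irgm1* had 40.1, 39.4 and 57.0 CPM in KI and 14.0, 9.07 and 11.2 CPM in WT (1.99, SE 0.27). *Gbp7*, *Gbp9*, *Igtp*, *Irgm2* and *Iigp1* had log2 fold changes between 1.11 and 2.12. Of 23 interferon-induced PARP, TRIM and nuclear body genes, 9 rose, led by *Samd9l* (1.76, SE 0.23). *Parp9* and its partner *Dtx3l* were at 1.43 and 1.23, and *Sp100* and *Sp110*, components of nuclear bodies, at 1.19 and 1.38. *Pml*, the scaffold of those bodies, named after its value was seen, did not pass (-0.23, adjusted p = 0.71). Over these 7 interferon lists together, 47 of 92 tested genes rose, 0 fell and 88 had a positive log2 fold change, with a median of 1.41. That count was 24 without KI replicate 3, 25 without WT replicate 2 and 25 without WT replicate 3.

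**Figure D2:**
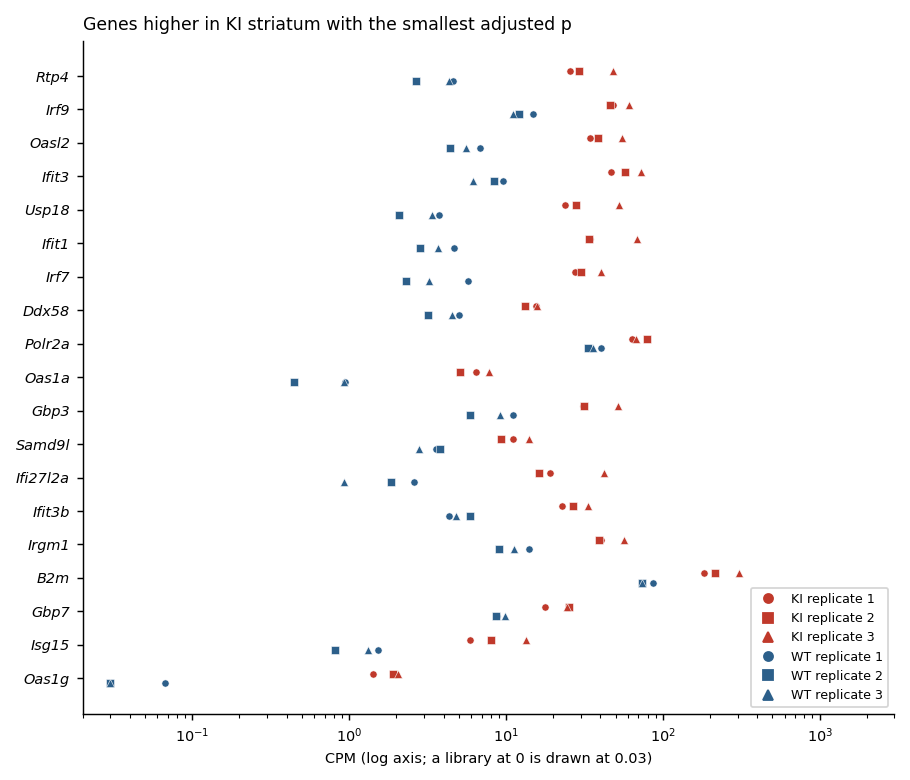
CPM (horizontal log axis) in the 3 KI (red) and 3 WT (blue) striatum libraries for 19 of the 20 higher genes with the smallest adjusted p, 1 gene per row, with the shape giving the replicate number. The KI libraries lie above the WT libraries in each row, from *Polr2a* (33.5 to 79.6 CPM) to *Oas1g* (0 to 2.05 CPM).

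Genes of antigen presentation on MHC class I were higher, though few passed. *B2m*, the light chain of all class I molecules, had 184, 216 and 306 CPM in KI and 86.7, 73.4 and 73.7 CPM in WT (1.59, SE 0.22, adjusted p = 0.0016 by edgeR, Benjamini-Hochberg adjusted). The heavy chain *H2-K1* had 68.2, 90.2 and 106 CPM in KI and 38.3, 35.5 and 34.1 CPM in WT (1.29, SE 0.26). All 10 tested class I genes had a positive log2 fold change, with 2 passing in edgeR and 4 in DESeq2. The edgeR count was 2 without KI replicate 1 and 1 without any other single library, since *H2-K1* passed in 1 of the 6 fits and *B2m* in all 6. *H2-D1* had 134, 152 and 177 CPM in KI and 60.3, 54.7 and 91.2 CPM in WT but did not pass (adjusted p = 0.14). Among 15 immunoproteasome and peptide loading genes, edgeR called 0, 11 had an unadjusted p under 0.05, and DESeq2 called 5 on the same groups and 3 with the striatum alone. *Tap1*, a subunit of the peptide transporter, had 7.91, 6.60 and 9.58 CPM in KI and 4.54, 3.64 and 2.47 CPM in WT (1.17, SE 0.27, adjusted p = 0.063), and *Psmb10* was at 0.61 (adjusted p = 0.054). Of 7 MHC class II genes, edgeR called 0, 1 had an unadjusted p under 0.05 and DESeq2 called 0, and their median was -0.33. Of 14 complement genes, edgeR called 0, 2 had an unadjusted p under 0.05, and DESeq2 called 1 lower.

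Markers of other cell types gave no call in the striatum with edgeR on all regions or with DESeq2 on the same groups. DESeq2 on the striatum alone called 1 of 8 pericyte and smooth muscle genes and 1 of 2 tested lymphocyte genes lower. Of 18 microglia genes, edgeR called 0 in the striatum, 3 had an unadjusted p under 0.05 and DESeq2 called 0, with a median of 0.07. Their summed level was 917 to 1046 CPM in KI and 922 to 1011 CPM in WT, so the genotypes overlapped. For 10 lymphocyte genes, of which 2 could be tested, the sum was 81.3 to 117 CPM in KI and 124 to 158 CPM in WT. The 2 tested genes went in opposite directions, with log2 fold changes of -0.58 and 0.45, so the sum does not stand for every member. The sum of the 10 genes was 1.61 to 4.93 CPM in the cerebellum and 5.48 to 19.1 CPM in the prefrontal cortex. Whether this sum measures lymphocytes in the striatum was not tested. The 8 pericyte and smooth muscle genes summed to 253 to 266 CPM in KI and 273 to 301 CPM in WT. Blood cell genes (5 tested) summed to 537, 282 and 220 CPM in KI and 227, 216 and 178 CPM in WT. The part of these differences in the interferon result was not tested. The 12 astrocyte genes summed to 3551 to 4417 CPM in KI and 3984 to 4355 CPM in WT, with 0 called by edgeR or by DESeq2 and 1 at an unadjusted p under 0.05. Sums of the remaining lists (reactive astrocytes, oligodendrocytes and their precursors, endothelium, ependyma, choroid plexus, leptomeninges, cortical and thalamic or septal neurons) overlapped between genotypes, with 0 members called by edgeR or by DESeq2 on the same groups and at most 2 per list at an unadjusted p under 0.05. Of 12 cortical glutamatergic genes, 11 had a positive and 1 a negative log2 fold change (median 0.41, median SE 0.51). Their sum was 404.6, 367.8 and 372.4 CPM in KI and 306.0, 237.2 and 473.5 CPM in WT replicates 1 to 3.

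**Figure D3:**
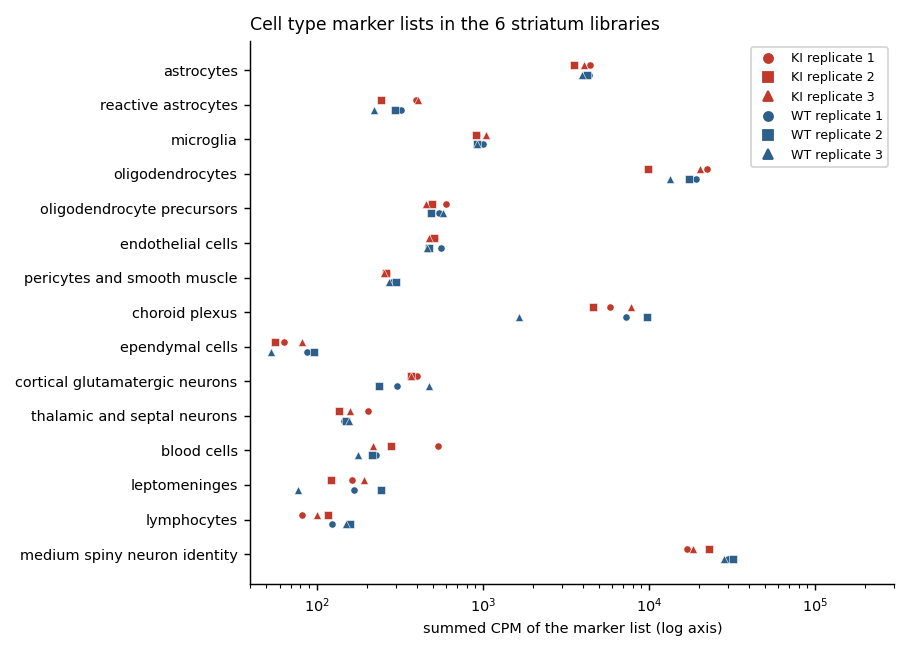
Summed CPM (horizontal log axis) of 14 marker lists of other cell types and of the medium spiny neuron list (rows) in the 3 KI (red) and 3 WT (blue) striatum libraries, with the shape giving the replicate number. WT replicate 3 lies apart for choroid plexus (1652 CPM) and KI replicate 2 for oligodendrocytes (9916 CPM), while the medium spiny neuron sums do not overlap between genotypes.

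Another 16 of the higher genes belonged to none of the lists and are named here after their values were seen. *Ifi206*, a member of the interferon-induced Ifi200 family, had 14, 14 and 13 reads in KI and 0 in each WT library, at least 13.0-fold higher against a floor of 3 reads over the WT group. *Apol9a* had 5, 12 and 33 reads in KI and 0 in WT, at least 15.6-fold higher. *Apol9b*, *Ddx60* (a helicase related to RIG-I), *Lgals9* (galectin-9) and *Gm43302* also rose, by 0.98 to 3.76 on the log2 scale. *Ctss*, the lysosomal protease cathepsin S, had 166, 179 and 226 CPM in KI and 122.7, 107.8 and 108.2 CPM in WT (0.75, SE 0.14). *Tma7* had 45.2, 45.7 and 47.0 CPM in KI and 30.1, 34.6 and 32.1 CPM in WT (0.51, SE 0.09), and *Tmem128* was at 0.72, *Gemin7* at 0.46, *Srprb* at 0.43, *1700123O20Rik* at 0.45, *Acy3* at 1.25 and the zinc finger gene *Zfp760* at 0.90. *4930599N23Rik*, annotated as an antisense transcript, was at 1.54, and its strand cannot be told apart because the strand setting of the counting is not given in the sources used here. *Gm5431* had 26, 12 and 12 reads in KI and 1 in each WT library. Of these 16 genes, *Ifi206* passed in all 6 fits that left out 1 library, *Tma7* in 4, and *Ctss* and *Apol9b* in 3. *Apol9a*, *Ddx60*, *Gm43302*, *Tmem128* and *1700123O20Rik* passed in 2 of them and the rest in 1.

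*Tbp* itself did not differ detectably at the RNA level. It lies at chr17:15499888-15528379 and had 38.1, 42.0 and 42.3 CPM in KI and 39.5, 49.7 and 44.0 CPM in WT (-0.12, SE 0.11, adjusted p = 0.84 by edgeR, Benjamini-Hochberg adjusted). Counts per gene do not separate the expanded from the normal allele, so this value does not check the genotype. Of the 15 tested genes within 1 Mb of *Tbp*, itself included, edgeR called 0 and their log2 fold changes lay between -0.55 and 0.66. The smallest unadjusted p among them was that of *Ermard* (0.39, unadjusted p = 0.024 and adjusted p = 0.48). In the list of 33 TFIID and general transcription factor genes, edgeR called 0, 1 had an unadjusted p under 0.05 (*Taf13*, 0.38) and DESeq2 called 0. The median was 0.02.

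*Polr2a*, the gene of the catalytic RPB1 subunit of RNA polymerase II, rose and the other subunit genes did not pass. It lies at chr11:69733997-69758637 and had 64.1, 79.6 and 67.4 CPM in KI and 40.5, 33.5 and 35.9 CPM in WT (0.94, SE 0.12, adjusted p = 0.00045). The lowest KI library had 1.58 times the level of the highest WT library, and the gene passed in all 6 fits that left out 1 library. The remaining 12 subunit genes had log2 fold changes between -0.08 and 0.20, and DESeq2 called no other of them. *Polr2a* was also higher in the KI cerebellum (0.97) and prefrontal cortex (0.86), both at an adjusted p under 0.05.

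The 32 lower genes included postsynaptic, channel and signalling genes. *Anks1b* (chr10:89873509-90973300), which encodes a postsynaptic scaffold, had 313, 336 and 280 CPM in KI and 536, 568 and 483 CPM in WT. It fell by 0.77 on the log2 scale (SE 0.10, adjusted p = 0.00057 by edgeR, Benjamini-Hochberg adjusted) and passed in all 6 fits that left out 1 library. *Acy1*, an aminoacylase, had 45.1, 50.9 and 48.1 CPM in KI and 91.0, 79.9 and 72.3 CPM in WT (-0.75, SE 0.11). *Ppp4r4*, a regulatory subunit of protein phosphatase 4, had 47.5, 52.6 and 46.3 CPM in KI and 78.9, 84.2 and 84.2 CPM in WT (-0.76, SE 0.12). Both genes had narrow spreads within each genotype, and with *Anks1b*, *Enpp5* (-0.49, SE 0.08) and *Gm8210* they were the 5 lower genes that passed in every such fit. *Gm8210*, a processed pseudogene at chr1:43189156-43189638, had 0, 0 and 1 reads in KI and 52, 27 and 19 reads in WT. It had 0 CPM in the 3 KI libraries of the prefrontal cortex as well, and 0.665 to 1.34 CPM in the KI cerebellum.

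Several lower genes encode parts of neuronal signalling. *Cnr1*, the CB1 cannabinoid receptor, had 231, 264 and 261 CPM in KI and 360, 549 and 363 CPM in WT (-0.75, SE 0.14, adjusted p = 0.021). *Kcnab1*, an auxiliary subunit of voltage-gated potassium channels, had 397, 490 and 418 CPM in KI and 647, 770 and 685 CPM in WT (-0.69, SE 0.13). *Cacna2d3* and *Cacnb3*, auxiliary subunits of voltage-gated calcium channels, fell by 0.63 and 0.46 on the log2 scale. *Cacna2d3* had 328, 434 and 381 CPM in KI and 553, 593 and 615 CPM in WT, without overlap. *Neto2*, an auxiliary subunit of kainate receptors, fell by 0.77 and the neurotrophin-3 receptor *Ntrk3* by 0.47. The kinases *Rps6ka5*, which encodes MSK1, *Akt2* and *Gsk3b* fell by 0.84, 0.48 and 0.32. *Gsk3b* had the smallest fall of the 32, from 230, 251 and 243 CPM in WT to 182, 209 and 191 CPM in KI. In the 6 fits that left out 1 library, *Akt2* passed in 0 and *Cnr1* in 3. The other genes named in this paragraph passed in 1 or 2 of them.

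*Kcnj10*, which encodes the glial inward rectifier Kir4.1, had one of the steepest falls. It lies at chr1:172341210-172374085 and had 35.2, 23.7 and 30.3 CPM in KI and 101, 106 and 102 CPM in WT (-1.79, SE 0.36, adjusted p = 0.030). Although it stood in the list of potassium channels, it is known from astrocytes and oligodendrocytes, and the sums of both marker lists overlapped between genotypes. It passed in none of the 6 fits that left out 1 library (-1.93 to -1.65) but with edgeR and DESeq2 on the striatum alone (adjusted p = 0.0044 and 1e-28). The WT libraries of the prefrontal cortex had 84.8 to 172 CPM and the KI libraries 21.9 to 39.3 CPM there, a fall of 2.10 that passed, whereas in the cerebellum 4 KI libraries had 36.9 to 125 CPM and 3 WT libraries 107 to 164 CPM. *Ddit4l*, an inhibitor of mTOR signalling, had 9.53, 19.2 and 19.9 CPM in KI and 44.2, 92.9 and 60.7 CPM in WT (-2.02, SE 0.42).

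The other lower genes with low levels were *Ankrd35* (-1.43, SE 0.29), *Wnt8b* (0.744, 0.293 and 0.264 CPM in KI and 2.34, 5.20 and 3.01 CPM in WT) and *Myo7b*, with 0, 1 and 0 reads in KI and 11, 10 and 12 reads in WT. *Wnt8b* and *Myo7b* passed in 0 of the 6 fits that left out 1 library, and *Ankrd35* in 2. *Slmap*, *Tbc1d8*, *Kdm4b*, *Sfxn1*, *St8sia3*, *Lpcat4*, *Dock4*, *Pradc1* and *Cnst* fell by 0.44 to 0.71 on the log2 scale. In WT, 27 of the 32 lower genes had their highest regional mean in the striatum, against 31.7% of all tested genes, and 8 had a striatal mean at least 3 times that of both other regions, against 3.17%. The WT striatum libraries also entered the calls, so these shares are a description.

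**Figure D4:**
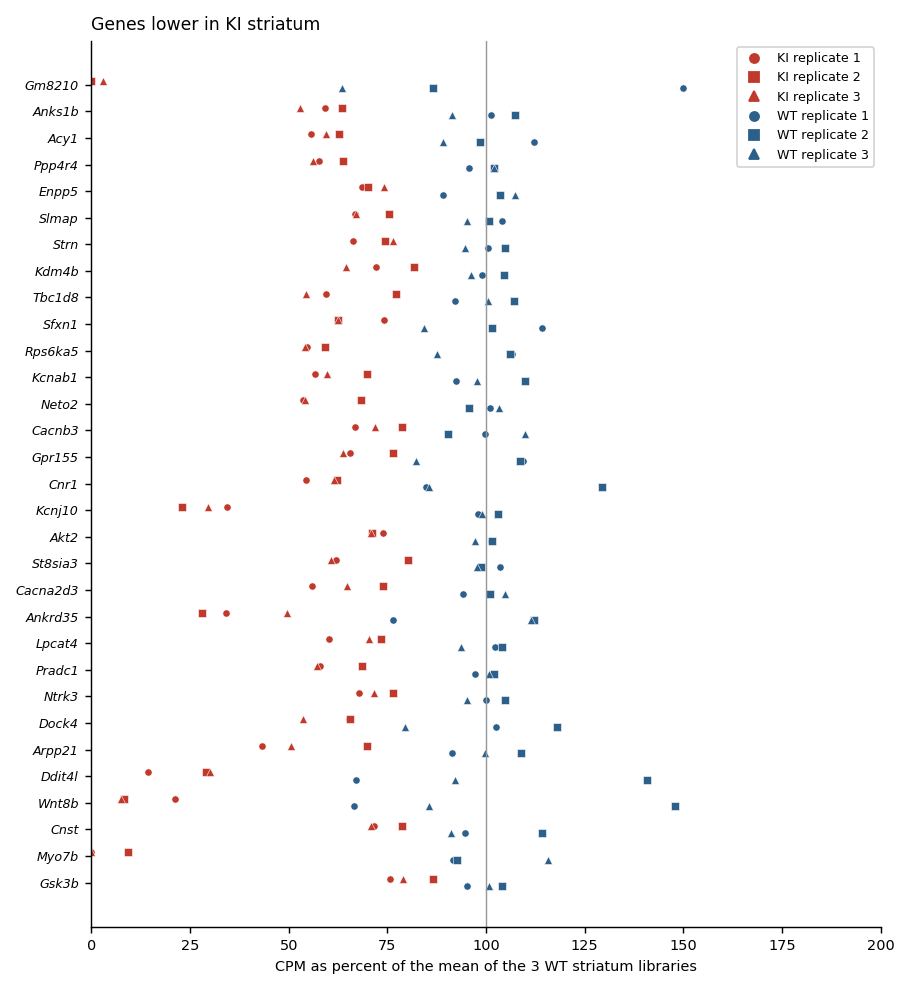
CPM as percent of the mean of the 3 WT striatum libraries (horizontal axis) for 31 of the 32 lower genes (rows, by adjusted p) in the KI (red) and WT (blue) libraries, with the shape giving the replicate number. The KI libraries lie left of the WT libraries in every row, and the fitted change is -41.5% for *Anks1b* and -71.0% for *Kcnj10*.

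Medium spiny neuron genes were lower as a group in these libraries, but few of them passed the test. Of 39 tested members, 3 passed, *Arpp21*, *Strn* and *Gpr155*, and 36 had a negative log2 fold change, with a median of -0.47. In 23 of the 39 the KI libraries lay below the WT libraries, against 8.46% of all tested genes. *Arpp21*, a phosphoprotein regulated by dopamine and cyclic AMP, had 1131, 1827 and 1322 CPM in KI and 2389, 2850 and 2611 CPM in WT (-0.88, SE 0.18, adjusted p = 0.033). *Strn*, striatin, had 143, 161 and 165 CPM in KI and 217, 226 and 204 CPM in WT (-0.47, SE 0.08), and *Gpr155* 120, 141 and 117 CPM in KI and 201, 200 and 151 CPM in WT (-0.54, SE 0.10). Fewer medium spiny neurons in the dissected tissue and less RNA of these genes per cell cannot be told apart in bulk samples. The summed level of the list was 17020, 23120 and 18300 CPM in KI replicates 1 to 3 and 30010, 32080 and 28350 CPM in WT, so the genotypes did not overlap. KI replicate 2, highest of the KI libraries in this sum, was lowest in oligodendrocyte markers, and 3 members passed with the oligodendrocyte level as a covariate, 3 with the choroid plexus level as a covariate and 4 without KI replicate 2 and WT replicate 3. These counts of calls do not measure the part of tissue composition in the lower values, which was not tested.

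The genes that define these neurons showed the same spread. *Ppp1r1b*, which encodes DARPP-32, had 1298, 1950 and 1538 CPM in KI and 2369, 2702 and 2220 CPM in WT, without overlap (-0.61, SE 0.39, adjusted p = 0.75). *Penk*, the enkephalin precursor of D2 neurons, had 1287, 1992 and 1388 CPM in KI and 4156, 3566 and 3268 CPM in WT (-1.24, SE 0.48, adjusted p = 0.45). *Pde10a*, the striatal cyclic nucleotide phosphodiesterase, had 469, 564 and 477 CPM in KI and 1087, 1113 and 857 CPM in WT (-1.02, SE 0.23, adjusted p = 0.054). The gap between the genotypes was wider than the range within either of them for *Penk*, and for *Pde10a* as well. *Drd1*, *Drd2*, *Adora2a* and *Tac1* are named after their values were seen. The dopamine receptors *Drd1* (277, 406 and 322 CPM in KI, 474, 556.4 and 567 CPM in WT) and *Drd2* (133, 170 and 151 CPM in KI, 232, 275 and 212 CPM in WT) both had a log2 fold change of -0.67. *Tac1*, the substance P precursor of D1 neurons, had 435, 595 and 480 CPM in KI and 461, 486 and 517 CPM in WT, an overlap (0.05).

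**Figure D5:**
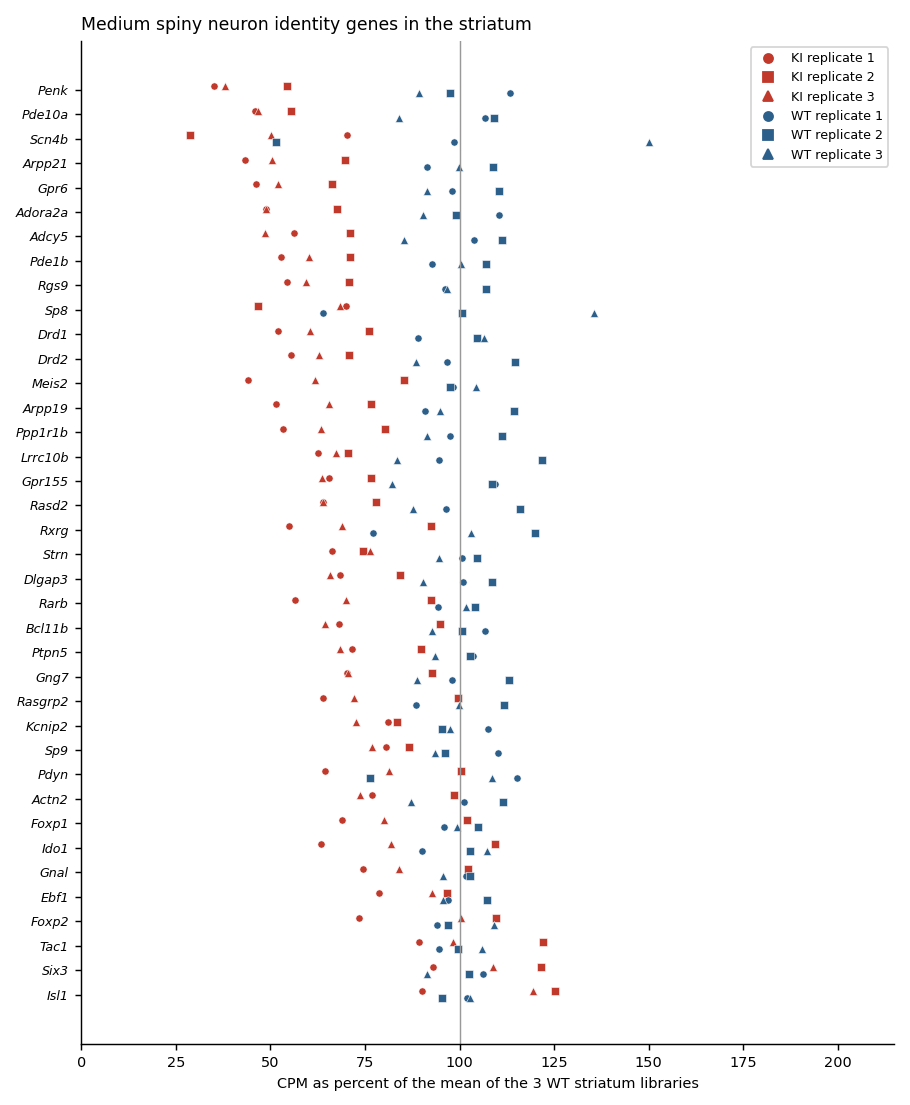
CPM as percent of the mean of the 3 WT striatum libraries (horizontal axis) for 38 of the 39 tested medium spiny neuron genes (rows, by log2 fold change) in the KI (red) and WT (blue) libraries, with the shape giving the replicate number. KI libraries lie left of WT libraries in 22 rows, *Penk* at the top among them, and mix with them at the bottom, where *Tac1* is at 0.05 on the log2 scale.

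The calls among these genes differed between fits. Prefrontal libraries differed widely in the same genes, for example 0.871 to 18.0 CPM of *Drd2*, and the median SE of the list was 0.32 in the fit on all regions and 0.14 in an edgeR fit on the striatum alone. DESeq2 on the striatum alone called 18 of the 39 lower, where 1.06% of 15451 genes were called lower. In the edgeR fit on the striatum alone it was 1, *Pde10a*, where 0.097% of 15460 genes were. With DESeq2 on the striatum alone the adjusted p was 0.014 for *Ppp1r1b*, 1.3e-09 for *Penk*, 0.0023 for *Drd1* and 1.3e-05 for *Adora2a*. With edgeR on the striatum alone it was 0.31, 0.057, 0.18 and 0.088 for the same genes. The list count was 4 without KI replicate 2, 2 without WT replicate 3, 1 without KI replicate 3 and 0 without KI replicate 1, WT replicate 1 or WT replicate 2.

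Related lists of striatal signalling had smaller medians. Of 24 dopamine and cyclic AMP signalling genes, edgeR called 0, 5 had an unadjusted p under 0.05, DESeq2 called 1 on the same groups and 9 with the striatum alone, and 22 had a negative log2 fold change (median -0.29). *Adcy5*, the main striatal adenylyl cyclase, had 616, 777 and 531 CPM in KI and 1135, 1216 and 932 CPM in WT (-0.77, SE 0.24, adjusted p = 0.27), and *Rgs4* was at -0.62. Of 14 opioid, neuropeptide and cannabinoid genes, edgeR called 1, *Cnr1*, and DESeq2 called 2 lower on the same groups and 3 with the striatum alone. The edgeR count was 0 without KI replicate 1, KI replicate 3 or WT replicate 2. Of 13 interneuron genes, edgeR called 0, 2 had an unadjusted p under 0.05 and DESeq2 called 0 on the same groups and 2 with the striatum alone. *Slc5a7*, *Chat* and *Slc18a3*, which mark cholinergic interneurons, had log2 fold changes of -1.03, -0.84 and -0.68 with KI below WT, and none passed (adjusted p = 0.44, 0.63 and 0.75).

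Calcium, channel and synapse lists held few calls. Of 27 calcium/calmodulin kinase, phosphatase and PKC genes, edgeR called 0, 8 had an unadjusted p under 0.05 and DESeq2 called 3, with a median of -0.20. *Camk2b*, the beta subunit of CaMKII, had 1009, 1274 and 909 CPM in KI and 1455, 1428 and 1398 CPM in WT (-0.42, SE 0.11, adjusted p = 0.11), and it passed with DESeq2 on the same groups (adjusted p = 0.013) and without KI replicate 2 (adjusted p = 0.011). Of 35 calcium channel, pump and release genes 2 fell, of 34 potassium channel genes 2 fell and of 24 postsynaptic scaffold genes 1 fell, each named above. DESeq2 called 5, 3 and 3 lower in these lists on the same groups and 7, 4 and 5 with the striatum alone. Without KI replicate 1 or KI replicate 3, edgeR called 0 of the calcium and 0 of the potassium channel genes. The same held for the calcium list without WT replicate 3 (4 calls without KI replicate 2, 1 without WT replicate 1 or 2) and for the potassium list without WT replicate 2 or 3 (1 without KI replicate 2 or WT replicate 1), and the scaffold count was 2 without KI replicate 2. Of 28 ionotropic glutamate and GABA-A receptor genes edgeR called 0, 6 had an unadjusted p under 0.05 and DESeq2 called 1. In the list of 17 mitochondrial import genes edgeR called 0, 2 had an unadjusted p under 0.05 and DESeq2 called 1. *Tomm70a*, an outer membrane receptor of that import, had 437, 552 and 456 CPM in KI and 666, 612 and 602 CPM in WT (-0.38, adjusted p = 0.11, and 0.022 with DESeq2 on the same groups). In the list of 20 immediate early genes edgeR called 0, 1 had an unadjusted p under 0.05 and DESeq2 called 1 lower with the striatum alone. *Npas4* ranged from 3.85 to 32.2 CPM in KI and from 2.81 to 43.5 CPM in WT, an overlap. In the lists of 29 chaperone genes and 9 polyglutamine disease genes, edgeR and DESeq2 called 0 and 1 in each had an unadjusted p under 0.05.

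The striatal calls were compared with the same contrast in the other regions. Of the 66 higher genes, 45 were also called higher in the cerebellum, where 0.517% of tested genes were, and 13 in the prefrontal cortex, where 0.0891% were. These are 68.2% and 19.7% of the striatal list, 51.7% of the cerebellar and 86.7% of the prefrontal list. Striatum and prefrontal libraries of the same number deviated together (r = 0.233 to 0.368 within genotype). The prefrontal overlap therefore may not come from separate animals, and the fit took all 19 libraries as separate. Of the 32 lower genes, 2 were called lower in the cerebellum (0.315% of tested genes), *Anks1b* among them, and 2 in the prefrontal cortex (0.0178%), *Kcnj10* and *Gm8210*. The median log2 fold change of the higher genes was 1.49 in the cerebellum and 1.00 in the prefrontal cortex, and that of the lower genes was -0.08 and -0.14. A call in one region and none in another is not a difference between them. In the test of the difference itself, 2 genes (0.0119%) passed between striatum and cerebellum, *Fam163b* and *Cd68*, and neither was among the 98 striatal calls. Between striatum and prefrontal cortex edgeR called 0 (0.0%), with 743 genes at an unadjusted p under 0.05, and DESeq2 called 12.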

How the data were processed

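RNA was extracted with Trizol, amplified with SMART-Seq v4 from 10 ng, made into Nextera XT libraries and sequenced on a HiSeq1000. The counts are reads per gene as deposited; the authors' processing notes name bcl2fastq 2.17.1.14, STAR 2.5.2b, HTSeq and DESeq2 1.10.1 with build GRCm38.p3, without roles, and the study's methods name Cufflinks. The annotation release and strand setting are not given in the sources used here. A second deposited table, counts divided by 1 factor per library, was not used. SMART-Seq reads carry no molecular identifiers, so read floors cover counting error only.

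All 19 libraries entered one edgeR 4.0.16 fit in R 4.3.3 (TMM, filterByExpr, 16841 of 41128 genes, 13 residual degrees of freedom, quasi-likelihood F-test, Benjamini-Hochberg adjustment over all tested genes, threshold 0.05). A prior count of 2 was used only for log2 CPM, from which the marker covariates and the correlations between replicate numbers were taken. Genes were named and placed by GENCODE M21 (40254 matched), promoters by RefSeq GRCm38.p6. Alternatives were DESeq2 1.42.0, DESeq2 size factors, other filters, the striatum alone, covariates, replicate blocks and each library left out. The test script was checked on simulated data in which each gene had the same spread in all regions. That check does not cover genes whose spread differs between regions. Replicate numbers of striatum and prefrontal cortex deviated together (r = 0.233 to 0.368 within genotype). A block on genotype and replicate number across all regions left the count of differences between striatum and prefrontal cortex at 0. That block also tied in the cerebellum, where libraries of the same number as in the striatum had r = -0.104 to 0.163. No fit paired striatum and prefrontal cortex alone.

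Members and the 27 pathway and 14 marker lists were chosen with earlier results of these data known. Genes were named if they were called lower, among the 20 higher genes of smallest adjusted p, called members of a list or up to 4 further members of smallest p, called between regions, within 1 Mb of *Tbp*, or named by the study for the striatum; others are marked in the text. Some genes that the rule names are not reported here.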

Additional observations from a re-analysis of the deposited data

Results flagged for a closer look

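*Fam163b*, which encodes a membrane protein expressed in neurons, was flagged because the knock-in effect differed between striatum and cerebellum in the test of the difference itself. It had 86.5, 78.7 and 81.4 CPM in the KI striatum and 136, 140.0 and 129 CPM in the WT striatum (-0.72, SE 0.16, adjusted p = 0.060), and 37.9, 52.9, 39.4 and 37.1 CPM in the KI cerebellum against 12.9, 10.0 and 11.1 CPM in the WT cerebellum (1.88, SE 0.17). The difference of the effects was -2.60 (SE 0.24, adjusted p = 8.4e-05, edgeR). In the striatum all KI libraries lay below the WT libraries and in the cerebellum all lay above them.

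*Cd68*, a lysosomal protein of microglia and macrophages, was flagged by the same test. It is one of the 18 microglia genes above. Of those, edgeR called 11 higher in the KI cerebellum (median 0.79), where 0.517% of tested genes were, and 0 in the striatum (median 0.07). *Cd68* was the only one of them to pass in the test of the difference. *Cd68* had 22.4, 30.0 and 26.3 CPM in the KI striatum and 29.7, 32.1 and 29.0 CPM in the WT striatum, an overlap (-0.21, SE 0.14), and 8.89, 7.82, 7.96 and 8.89 CPM in the KI cerebellum against 2.83, 4.00 and 4.37 CPM in the WT cerebellum (1.17, SE 0.15). The difference was -1.38 (SE 0.20, adjusted p = 0.026, edgeR).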

How the results depend on the processing

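Against 66 higher and 32 lower genes, DESeq2 called 112 and 102 on the same 6 groups and 110 and 164 with the striatum alone, and edgeR with the striatum alone called 31 and 15. Leaving out 1 library gave 29 to 77 higher and 6 to 44 lower genes. A replicate block within each region gave 42 higher and 30 lower. Genotypes share only the number in the striatum (same-number r = 0.127, -0.028 and -0.085). The other alternatives, choroid plexus, sex and oligodendrocyte covariates included, called 61 to 71 higher and 28 to 39 lower genes. These shared 60 to 66 and 23 to 32 genes with the calls, but only 33 and 20 after the joint removal of KI replicate 2 and WT replicate 3. No called gene changed sign in any setting. The oligodendrocyte covariate and this removal were chosen after seeing the data. The cause of these changes was not tested. For the difference between striatum and cerebellum (2 genes), DESeq2 on the same groups gave 50, the replicate block 8 within regions and 1 across regions, the sex covariate 1, leaving out 1 library 1 to 4, and leaving out KI replicate 2 and WT replicate 3 gave 13. For striatum and prefrontal cortex (0), DESeq2 gave 12 and that removal 3.

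Uncalled values near 0 changed sign. *Tac1* was at -0.15 with the sex covariate, -0.047 without KI replicate 2 and WT replicate 3 and between -0.093 and 0.14 on leaving out 1 library. *Ttr* was at 0.21 with the block within regions, 0.48 with the sex covariate, 0.046 with the oligodendrocyte covariate and between -0.48 and 0.44 on leaving out 1 library. At 13453498 to 15493036 reads, genes with no read in WT have only a lower bound on their fold.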
